A study of Mus musculus and Rattus norvegicus with 53 samples.

Results

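Schwann cells (SCs) sorted from the bridge (bSCs) were compared with SCs sorted from the distal stump (dSCs) 6 days after the sciatic nerve was cut. The comparison takes the 8 pooled-nerve libraries of these regions, 4 of bSCs and 4 of dSCs, out of 53 samples in the series, and all genes in them. The libraries were taken by the region, day and kind of nerve sample in their labels. The bridge is the new tissue that forms across the gap between the cut ends, and the distal stump is the nerve beyond the cut, in which axons degenerate. Both groups came from young adult mice that carried P0A-Cre and the Rosa26 tdTomato reporter and had a sciatic nerve transected. The cells of both groups were tdTomato+ cells obtained by flow sorting, with gates set on nerves of mice without P0A-Cre, and no other treatment was given. Each library pooled nerves of 3 mice, bridges being digested together and distal stumps separately before they were combined. Pools 1, 2, 3 and 5 of both regions carry the same animal label, so bSC 1 and dSC 1 came from the same mice and so on. The reporter marks every cell whose lineage has used the promoter of the Cre, which is active in the neural crest, so the sort selects by reporter history and not by current SC identity. Expression was measured by Smart-seq2, a method that copies polyadenylated RNA of very small samples into cDNA and amplifies it. SCs of intact nerves (iSCs, 4 pooled libraries) entered the fit, and single-nerve libraries of the same regions and day were used as a separate set of samples.

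After nerve injury, myelinating and non-myelinating SCs leave their differentiated state and become repair cells that take up myelin, recruit immune cells, secrete trophic factors and divide. In the distal stump these cells stay within the old basal lamina tubes, where debris is cleared. Cells that enter the bridge leave the tubes and migrate as cords across newly formed connective tissue, and axons then grow along them.

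Library totals over genes ran from 11435463 to 22617054 counts in bSCs and from 13466481 to 16281651 in dSCs. The number of genes with at least 1 count was 11735 to 12606 in bSCs and 12432 to 14715 in dSCs, and at equal depth it was 11634 to 12505 and 12367 to 14663. Of the reads that were on genes, ambiguous or on no feature, 44.0% to 45.8% were on genes in bSCs and 39.1% to 43.0% in dSCs, and the 100 most abundant genes took 23.8% to 26.9% and 29.2% to 33.8% of gene counts. Neither measure overlapped between the regions, and their part in the results below was not tested. ERCC spike-in RNA took 0.0111% to 0.864% of the counts in bSCs, with the highest share in bSC 3, and 0.0123% to 0.0953% in dSCs. Since PCR copies are not independent molecules, depth bounds the counting error only. Levels are given below as CPM (the counts of a gene relative to its library total, scaled by TMM factors), always in the order of pools 1, 2, 3 and 5. In parentheses, log2 is the fitted log2 fold change of bSCs over dSCs ± a standard error. This error was back-calculated as the size of the change over the square root of the test's F statistic. Adjusted p is that of edgeR's quasi-likelihood test over all genes tested (4 libraries per region). Blocked adjusted p is the value with the pool number as a block, given beside a gene's values where the call was lost with it. A gene is called at an adjusted p under 0.05. In bulk RNA, fewer cells of a type and less RNA per cell cannot be told apart.

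The sorted cells carried SC transcripts in both regions. They also carried transcripts listed as markers of other cell types, and some of these lists differed between the regions in the pools. By flow cytometry, the paper found the great majority of tdTomato+ cells in each region positive for S100β protein. The 12 SC lineage markers summed to 1152, 1242, 2162 and 1315 CPM in bSCs and to 1584, 1340, 1879 and 1268 CPM in dSCs, and these ranges overlapped. *Sox10*, the transcription factor that defines the SC lineage, stood at 63, 103, 219 and 131 CPM in bSCs and 96.5, 69.1, 182 and 143 CPM in dSCs (log2 0.07 ± 0.38, adjusted p = 0.948). The 20 macrophage markers summed to 7946, 11759, 5845 and 3598.5 CPM in bSCs and to 13561, 22645, 17459 and 17314 CPM in dSCs without overlap, and all 20 had negative log2 fold changes. None of the 20 was called by edgeR or with DESeq2, and 2 had an unadjusted p under 0.05. The 12 fibroblast markers summed to 36128, 20014, 20091 and 30319 CPM in bSCs and 46250, 51444, 35282 and 42897 CPM in dSCs. These ranges overlapped, 11 of the 12 were negative, and *Dcn*, *Lum* and *Pi16* were called lower. *Pi16* lost its call with the pool number as a block, and the call ended for *Pi16* without bSC 2, bSC 3, dSC 1, dSC 2 or dSC 5 (adjusted p = 0.0526 to 0.0645). The sum of the 10 mural cell markers went the other way, with 878, 649, 528 and 1577 CPM in bSCs and 310, 365, 308 and 263 CPM in dSCs. Of these 10, 6 were positive and 4 negative. *Tagln* was called higher, though not with the pool block. *Myh11* was called lower, also with the block and in every fit that left out 1 library. Endothelial sums overlapped (199 to 1201 CPM in bSCs, 179 to 551 CPM in dSCs), with 10 of 12 markers positive. Perineurial sums did too (217 to 508 and 266 to 825 CPM), with all 8 markers negative. Neutrophil markers reached 9.47 to 28.7 CPM in bSCs and 38.3 to 49.3 CPM in dSCs. Of 7 T cell markers, 6 (*Cd3d*, *Cd3e*, *Cd3g*, *Cd4*, *Cd8a* and *Lck*) had no count in any bSC library. In single nerves of day 6, macrophage sums (1674 to 11623 CPM in bSCs, 3770 to 18741 CPM in dSCs) and mural sums (732 to 1314.5 and 655 to 927 CPM) overlapped. Fibroblast sums there were higher in bSCs without overlap (48481 to 60532 and 31521 to 42138 CPM). T cell markers reached 2.51 to 7.79 CPM in single bSCs and 0 to 18.2 CPM in single dSCs. Whether these transcripts came from other cells, and how much such cells contributed to any result below, was not tested.

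**Figure D1:**
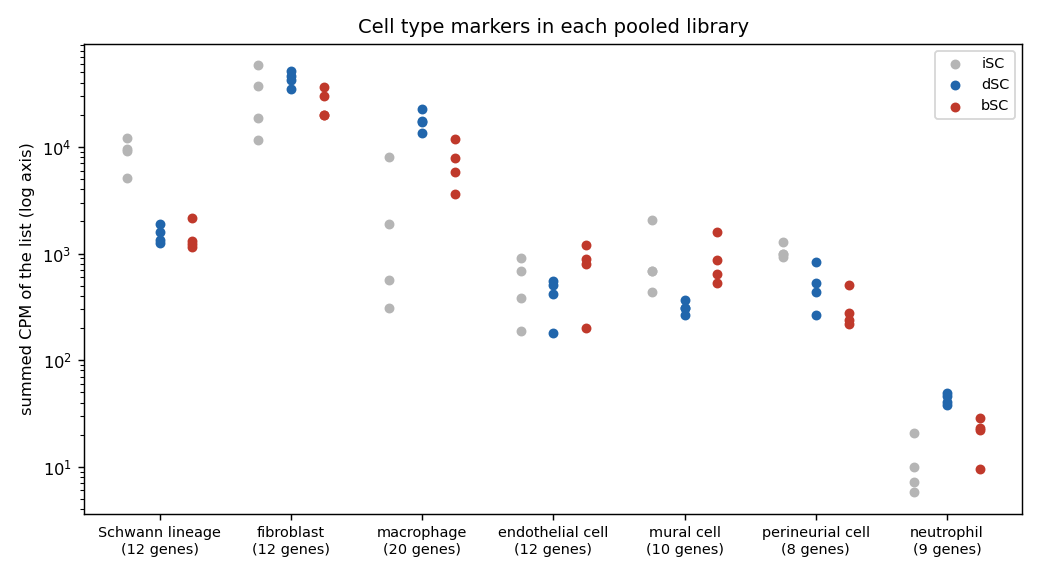
Summed level of 7 lists of cell type markers (CPM, log axis) in each pooled library of intact nerve (grey), distal stump (blue) and bridge (red), 1 point per library. The macrophage sum was lower in all 4 bSC libraries than in any dSC library, and the mural cell sum was higher in all 4. The SC lineage sums of bSCs and dSCs overlapped.

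Of 13751 genes tested, 318 were called higher in bSCs (2.31%) and 428 lower (3.11%), 5.43% in all, and the median log2 fold change over all genes was -0.07. The higher genes differed by modest amounts, with a median log2 fold change of 1.35, and 3 of them had no count in any dSC library. Of all genes tested, 6.77% were higher in every bSC library than in any dSC library and 8.62% lower, and this held for 301 of the 318 and 395 of the 428. Many of the lower genes were near or at 0 in bSCs. Their median was -3.16, or -3.06 with genes at 0 set to their bound, and 112 of the 428 had no count in any bSC library. With the pool number as a block 236 genes were called (1.72%), 97 higher (0.705%) and 139 lower (1.01%). Within pools 1, 2 and 5 alone, whose libraries were deposited as pairs of lane files, 41 were higher and 68 lower. Of the genes called higher, 86 kept their call in each of 8 fits that left out 1 library, and 167 of those called lower did. The order of genes in the groups below does not follow how many of these fits kept their call. Each list is given by its counts and its median, to be read beside the values over all genes. On NCBIM37, the Ensembl name of mm9, the genes that recur below lie at chr7:109590209-109618285 (*Rrm1*), chr9:49310257-49607027 (*Ncam1*), chr3:54165031-54194961 (*Postn*), chr4:63620819-63681760 (*Tnc*), chr11:81871325-81876457 (*Ccl11*) and chr16:31296278-31314894 (*Apod*), and GENCODE lists all as protein-coding.

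**Figure D2:**
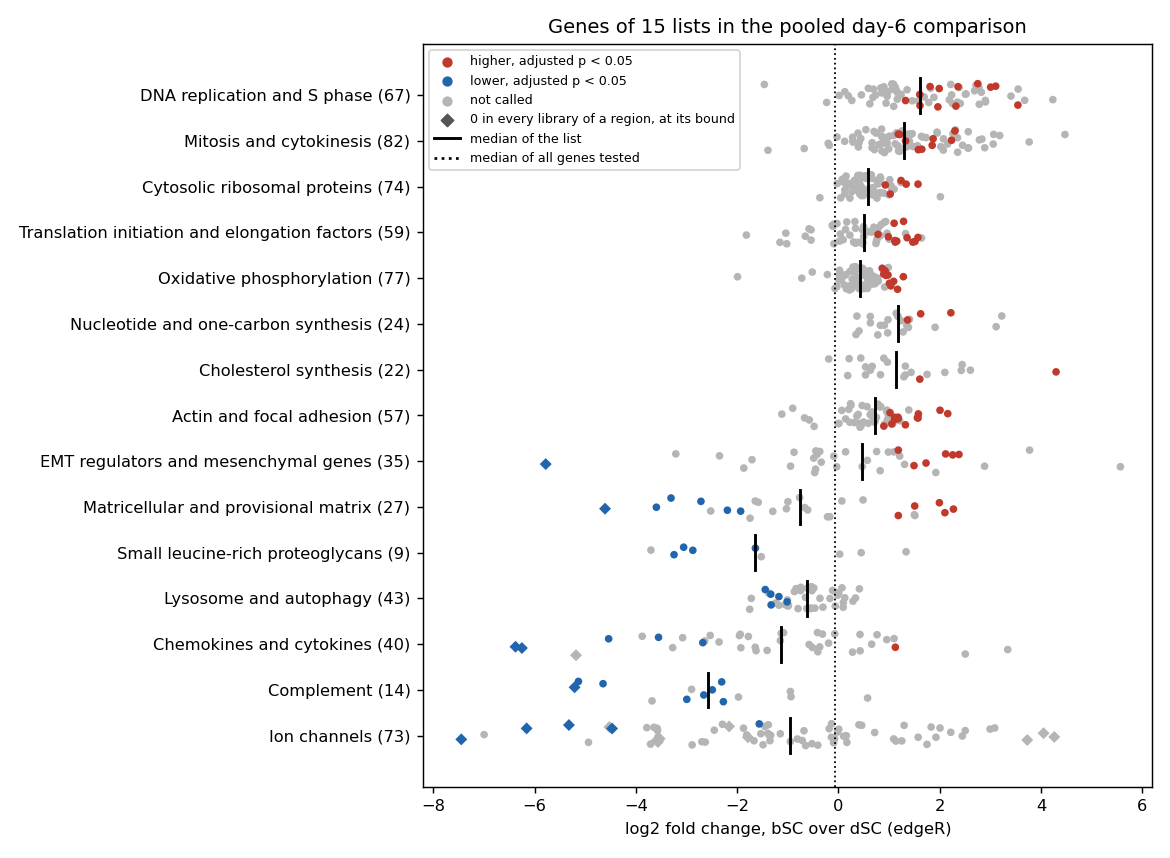
Log2 fold change of bSCs over dSCs for the genes of 15 lists, 1 point per gene, with the number of genes tested in parentheses. The median line of DNA replication genes lies at 1.61 and that of complement genes at -2.57, against -0.07 for all genes tested (dotted line).

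Genes of cell division were higher in bSCs. Of 67 genes of DNA replication and S phase tested, 12 were called, all higher, 65 had a positive log2 fold change, and the median was 1.61. The 12 were *Fen1*, *Mcm3*, *Mcm6*, *Mcm7*, *Orc6*, *Rfc4*, *Rfc5*, *Rrm1*, *Rrm2*, *Tipin*, *Tk1* and *Uhrf1*. Ribonucleotide reductase makes the deoxyribonucleotides for new DNA, and its large subunit *Rrm1* stood at 154, 228, 229.6 and 260.1 CPM in bSCs and 39.6, 71.7, 80.5 and 57 CPM in dSCs (log2 1.81 ± 0.26, adjusted p = 0.00405). *Rfc5*, a subunit of the complex that loads the PCNA clamp, stood at 73.3, 98.6, 55.6 and 95.9 CPM in bSCs and 11.9, 21.3, 18.5 and 11.1 CPM in dSCs (log2 2.36 ± 0.37, adjusted p = 0.00482). For both genes every bSC library lay above every dSC library. *Uhrf1*, which carries DNA methylation to the new strand, stood at 73.8, 74, 108 and 216 CPM in bSCs and 8.49, 10.3, 26.3 and 13.7 CPM in dSCs (log2 3.01 ± 0.63, adjusted p = 0.0185). *Mcm6*, part of the replicative helicase, stood at 82.4, 106, 159.8 and 356 CPM in bSCs and 32.1, 24.8, 59.6 and 24.6 CPM in dSCs (log2 2.32 ± 0.50, adjusted p = 0.0201, blocked adjusted p = 0.0506). For these too the regions did not overlap, and bSC 5 was the highest library of both. *Rrm2*, the small subunit of the reductase, stood at 174, 131, 224 and 366 CPM in bSCs and 17.6, 26.8, 37.2 and 22.5 CPM in dSCs (log2 3.10 ± 0.75, adjusted p = 0.0309, blocked adjusted p = 0.107), and *Rfc4* at 24.9, 33.6, 49.8 and 56.4 CPM in bSCs and 1.76, 0.336, 8.49 and 3.51 CPM in dSCs (log2 3.54 ± 0.86, adjusted p = 0.0317, blocked adjusted p = 0.0621). The clamp gene *Pcna* was not called, with 161, 195, 192 and 236 CPM in bSCs and 151, 63.1, 72.8 and 111 CPM in dSCs (log2 0.98 ± 0.28, adjusted p = 0.0622). Calls ended for *Uhrf1* without bSC 5, dSC 1, dSC 2 or dSC 5 (adjusted p = 0.0508 to 0.0585), for *Mcm6* without bSC 5, dSC 1, dSC 2 or dSC 5 (adjusted p = 0.0546 to 0.0647), for *Rrm2* without bSC 3, bSC 5, dSC 1, dSC 2, dSC 3 or dSC 5 (adjusted p = 0.0505 to 0.0862) and for *Rfc4* without bSC 3, bSC 5, dSC 1 or dSC 5 (adjusted p = 0.0601 to 0.0852). The count of 12 was 6 with the pool block, and 4 without bSC 3, 2 without bSC 5, 3 without dSC 1, 3 without dSC 2 and 2 without dSC 5.

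Mitosis and cytokinesis genes showed the same direction, with 9 of 82 called, all higher, 77 positive and a median of 1.30. *Ccna2*, the cyclin of S phase and mitotic entry, stood at 103, 136, 237 and 292 CPM in bSCs and 45.9, 39.8, 64.9 and 59.7 CPM in dSCs (log2 1.87 ± 0.34, adjusted p = 0.0105). *Tubb5*, a β-tubulin, stood at 2024, 2839.9, 2507 and 3922 CPM in bSCs and 1198, 1220.3, 1091 and 1379 CPM in dSCs (log2 1.21 ± 0.23, adjusted p = 0.012), and reads of tubulin genes may be shared with near-identical copies. In both, the lowest bSC library lay above the highest dSC library. *Ube2c*, which carries ubiquitin for the anaphase-promoting complex, stood at 86.2, 81.3, 94.7 and 134 CPM in bSCs and 14.1, 26, 21.5 and 22.6 CPM in dSCs (log2 2.23 ± 0.47, adjusted p = 0.018, blocked adjusted p = 0.085). The others were *Birc5*, *Kpna2*, *Racgap1*, *Spc24*, *Stmn1* and *Tuba1b*. Not every proliferation gene moved. *Mki67*, the usual marker of cycling cells, stood at 45.2, 15.1, 58.4 and 64.2 CPM in bSCs and 74.9, 36.9, 23.6 and 51.2 CPM in dSCs (log2 -0.03 ± 0.55, adjusted p = 0.987), with regions that overlapped fully. Nor was *Ccnd1*, the D-type cyclin, called, with 621, 818, 1152 and 1015 CPM in bSCs and 1078, 1258, 766 and 581 CPM in dSCs (log2 -0.03 ± 0.28, adjusted p = 0.97). Its partner kinase *Cdk4* was called, with 324, 316, 352 and 509 CPM in bSCs and 138, 204, 205 and 189 CPM in dSCs (log2 1.03 ± 0.23, adjusted p = 0.0212, blocked adjusted p = 0.0604). The mitosis count of 9 was 2 with the pool block and 3 without bSC 5 or dSC 5. Calls ended for *Ube2c* without bSC 5, dSC 1 or dSC 5 (adjusted p = 0.0518 to 0.0568) and for *Cdk4* without bSC 5, dSC 1 or dSC 5 (adjusted p = 0.0578 to 0.0621).

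Promoters of 3 called genes are shown because the E2F, CCAAT and CHR letters are known elements of cell cycle promoters. Sequences are RefSeq's on GRCm38.p6, 250 bases before the start on the strand of the gene, and genes were linked by symbol, since the counts used mm9. Capitals mark TTTCCCGC or TTTGGCGC (the E2F letters searched) in *Mcm6* and *Mcm7*, and CCAAT or TTTGAA (CHR) in *Ube2c*, on either strand.
Mcm6, chr1:128359706-128359955, minus strand: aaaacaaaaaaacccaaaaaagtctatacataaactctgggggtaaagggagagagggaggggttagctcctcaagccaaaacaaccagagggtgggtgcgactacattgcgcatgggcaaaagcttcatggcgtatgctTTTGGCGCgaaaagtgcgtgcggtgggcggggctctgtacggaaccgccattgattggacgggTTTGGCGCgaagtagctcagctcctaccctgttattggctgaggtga
Mcm7, chr5:138171884-138172133, minus strand: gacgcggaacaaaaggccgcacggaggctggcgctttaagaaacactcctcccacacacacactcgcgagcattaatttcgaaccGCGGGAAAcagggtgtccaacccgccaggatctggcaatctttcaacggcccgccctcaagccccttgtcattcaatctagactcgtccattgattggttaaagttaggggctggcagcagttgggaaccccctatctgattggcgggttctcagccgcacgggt
Ube2c, chr2:164769679-164769928, plus strand: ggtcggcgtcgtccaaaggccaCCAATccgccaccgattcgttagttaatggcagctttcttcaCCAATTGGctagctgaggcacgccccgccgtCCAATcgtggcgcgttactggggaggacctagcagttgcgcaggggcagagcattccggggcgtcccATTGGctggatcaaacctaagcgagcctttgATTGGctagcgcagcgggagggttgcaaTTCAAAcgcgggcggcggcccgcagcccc
*Mcm6* has 2 E2F matches, which begin 110 and 47 bases before the start, and *Mcm7* has 1, which begins 165 bases before it. *Ube2c* has 6 CCAAT matches, of which 1 pair overlaps, and 1 CHR match. In windows of 300 bases that also take 50 bases after the start, the E2F letters were in 514 of 32851 promoters (1.56%) and in 17 of the 51 S phase genes tested that had a promoter in the table (33.3%), against 3 of the 11 called among them. CHR letters were in 17.9% of all promoters, in 42 of 66 mitosis genes tested (63.6%) and in 3 of the 6 called. CCAAT was in 37.4% of all promoters, in 29 of 51 S phase genes and in 46 of 66 mitosis genes. A match is a description of the letters and no evidence of binding.

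Of the lists on protein synthesis and metabolism, a minority of members were called, and these were higher in bSCs in the pooled nerves. Translation factors had 11 of 59 called, all higher, and a median of 0.50. *Eif5a*, a factor that relieves stalled ribosomes, stood at 1007, 1406, 1864 and 2038 CPM in bSCs and 548, 610.5, 656 and 400.4 CPM in dSCs (log2 1.51 ± 0.26, adjusted p = 0.00761). *Eif2s1*, the α subunit of the factor that brings initiator tRNA, stood at 194, 312, 364 and 323 CPM in bSCs and 82.4, 91, 160.5 and 68 CPM in dSCs (log2 1.57 ± 0.30, adjusted p = 0.012). *Eif6*, which keeps ribosomal subunits apart until they mature, stood at 139, 197, 221 and 287 CPM in bSCs and 64.8, 83.5, 89 and 67.8 CPM in dSCs (log2 1.47 ± 0.26, adjusted p = 0.00936). None of these overlapped between the regions. Of 74 cytosolic ribosomal protein genes, 5 were called higher (*Rpl15*, *Rpl3*, *Rplp0*, *Rps2* and *Rps6*), 72 were positive and the median was 0.58. *Rplp0*, a protein of the stalk of the large subunit, stood at 1792, 2191, 2281 and 2867 CPM in bSCs and 760.1, 784, 572 and 956 CPM in dSCs (log2 1.57 ± 0.24, adjusted p = 0.00482). *Rpl15* stood at 809, 730.2, 739 and 743 CPM in bSCs and 371, 353, 348 and 415 CPM in dSCs (log2 1.02 ± 0.18, adjusted p = 0.00935), a small difference with little spread in either region. Ribosomal protein genes have many processed copies, so their reads are uncertain. Ribosome biogenesis had 4 of 54 called higher and a median of 0.81, led by the nucleolar gene *Nop16* at 82.3, 56.2, 96.1 and 111 CPM in bSCs and 32.1, 20.2, 28.7 and 32 CPM in dSCs (log2 1.61 ± 0.29, adjusted p = 0.00961). The translation factor count of 11 was 5 with the pool block and 5 to 7 without bSC 2, bSC 3, bSC 5, dSC 1, dSC 2, dSC 3 or dSC 5. The ribosomal protein count of 5 was 3 without bSC 5, dSC 1 or dSC 2 and 8 without dSC 5, and the biogenesis count of 4 was 1 with the block, 2 without bSC 2 and 1 without bSC 5, dSC 1 or dSC 5.

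All 24 genes of nucleotide and one-carbon synthesis had positive log2 fold changes, with a median of 1.17 and 3 called higher. *Psat1*, an enzyme of serine synthesis, stood at 72.9, 154, 207 and 167 CPM in bSCs and 27.4, 32.5, 41.3 and 27.7 CPM in dSCs (log2 2.22 ± 0.32, adjusted p = 0.00405). *Gart*, an enzyme of purine synthesis, stood at 108, 113, 94.1 and 177 CPM in bSCs and 36.7, 23.7, 57.9 and 41.3 CPM in dSCs (log2 1.62 ± 0.36, adjusted p = 0.0211, blocked adjusted p = 0.0673). Glycolysis had 3 of 23 called higher around a median of 0.08, with *Pgk1* at 257, 305, 323 and 444 CPM in bSCs and 147, 116, 131 and 165 CPM in dSCs (log2 1.25 ± 0.22, adjusted p = 0.00824) and *Pkm* at 815, 881, 677 and 1219.5 CPM in bSCs and 248, 465, 458 and 314 CPM in dSCs (log2 1.27 ± 0.26, adjusted p = 0.0149, blocked adjusted p = 0.0631). In these 4 genes bSCs and dSCs did not overlap. Hexokinase *Hk2* did not overlap either but was lower in bSCs, and it was not called, at 11.4, 10.2, 0.945 and 20.8 CPM in bSCs and 73, 33.1, 43.8 and 33.9 CPM in dSCs (log2 -2.08 ± 0.78, adjusted p = 0.134). Of the 23 glycolysis genes, 5 were higher in every bSC library than in any dSC library and 3 lower, against 6.77% and 8.62% of all genes. DESeq2 called 5 of them higher and 2 lower. Oxidative phosphorylation had 10 of 77 called higher, 71 positive and a median of 0.42, with *Uqcrc1*, a subunit of complex III, at 427, 541, 513 and 487 CPM in bSCs and 204, 241, 299.9 and 216 CPM in dSCs (log2 1.03 ± 0.22, adjusted p = 0.018). Of 22 cholesterol genes, 21 were positive with a median of 1.13, and 2 were called, 0 with the pool block. Among the called genes, *Fdps*, an enzyme of the pathway, stood at 90.3, 87.3, 166 and 152 CPM in bSCs and 63.1, 30.4, 40.1 and 29.2 CPM in dSCs (log2 1.61 ± 0.32, adjusted p = 0.0146, blocked adjusted p = 0.0583). The oxidative phosphorylation count of 10 was 2 with the pool block and 2 to 6 without bSC 2, bSC 3, bSC 5, dSC 1, dSC 2, dSC 3 or dSC 5. The nucleotide count of 3 was 1 with the block, 5 without bSC 1 and 1 without bSC 5, dSC 1, dSC 2 or dSC 5, and the glycolysis count of 3 was 1 with the block. Calls ended for *Gart* without bSC 5, dSC 1, dSC 2 or dSC 5 (adjusted p = 0.0518 to 0.0635) and for *Uqcrc1* without dSC 1 or dSC 5 (adjusted p = 0.0553 to 0.0575).

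Genes of the actin cytoskeleton that were called were all higher in bSCs, whereas lists of adhesion molecules had few calls in either direction. Of 57 actin and focal adhesion genes, 13 were called, all higher, and the median was 0.72. *Msn* encodes moesin, which ties actin to the membrane, and stood at 1312, 1210.4, 1549 and 2085 CPM in bSCs and 285, 568, 825 and 383 CPM in dSCs (log2 1.58 ± 0.31, adjusted p = 0.0137). *Palld*, an organizer of actin bundles, stood at 136, 74.8, 109 and 188 CPM in bSCs and 15.9, 20, 42.5 and 35.2 CPM in dSCs (log2 2.16 ± 0.39, adjusted p = 0.00936). *Flna*, which crosslinks actin, stood at 573, 738, 569 and 1375 CPM in bSCs and 316, 212, 268 and 299 CPM in dSCs (log2 1.57 ± 0.33, adjusted p = 0.0171). All were above dSCs in every bSC library, whereas *Actb* overlapped, at 14750.0, 19450.2, 22245 and 24407 CPM in bSCs and 9159, 12997, 10319.8 and 16976 CPM in dSCs (log2 0.71 ± 0.30, adjusted p = 0.182). *Ncam1*, an adhesion molecule of repair and non-myelinating SCs, was among the largest increases, at 487, 436, 541 and 916 CPM in bSCs and 41.5, 29.3, 149 and 83.6 CPM in dSCs (log2 2.97 ± 0.56, adjusted p = 0.0116). *L1cam*, an adhesion molecule of axons and SCs, stood at 95.7, 80, 139 and 219 CPM in bSCs and 27.5, 23.7, 67.7 and 17.1 CPM in dSCs (log2 1.97 ± 0.49, adjusted p = 0.036, blocked adjusted p = 0.0849). The fibronectin receptor subunit *Itga5* stood at 305, 218, 155 and 322 CPM in bSCs and 75.7, 108, 117 and 83.4 CPM in dSCs (log2 1.38 ± 0.30, adjusted p = 0.0201, blocked adjusted p = 0.0758). The regions did not overlap for these 3 genes. Of 23 integrins 1 was called higher and 1 lower (4.35% each), with a median of -0.17. Of 23 axon-glia adhesion molecules 2 were higher (8.70%) and 1 lower (4.35%), with a median of -0.12. Of all genes, 2.31% were called higher and 3.11% lower. With the pool block no integrin was called, and 1 axon-glia adhesion molecule was, higher. No cadherin or connexin was called by edgeR (4 and 3 at an unadjusted p under 0.05, 3 and 2 called with DESeq2), and of 18 claudin and tight junction genes 2 were called lower, 0 with the block. N-cadherin, *Cdh2*, was not called, with 27.8, 64.5, 58.7 and 141 CPM in bSCs and 42.7, 27.7, 32.6 and 23.3 CPM in dSCs (log2 1.21 ± 0.46, adjusted p = 0.137). The actin count of 13 was 7 with the pool block, 8 without bSC 2, 7 without bSC 3, 5 without bSC 5, 3 without dSC 1, 6 without dSC 2 and 4 without dSC 5. The actin genes called lower, 0 in the main fit, were 1 with the block, 2 with DESeq2 and 0 to 2 without 1 library. Calls ended for *Flna* without dSC 2 (adjusted p = 0.05), for *L1cam* without bSC 3, bSC 5, dSC 1, dSC 2 or dSC 5 (adjusted p = 0.0636 to 0.0962) and for *Itga5* without bSC 5, dSC 1 or dSC 5 (adjusted p = 0.0543 to 0.063).

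Some mesenchymal genes were called, most of them higher in bSCs. The list of epithelial-mesenchymal transition (EMT) regulators and mesenchymal genes held 35 genes tested, with a median of 0.47. Of these, 6 were called higher (*Cd44*, *Cnn2*, *Fstl3*, *S100a4*, *Tagln* and *Tnfrsf12a*), 17.1% against 2.31% of all genes. The 1 called lower, 2.86% against 3.11%, was *Ocln*, a tight junction gene at 0 in every bSC library, not called with the pool block. DESeq2 called 10 of the list higher and 2 lower. *Cnn2*, an actin-binding calponin, stood at 251, 283, 474 and 692 CPM in bSCs and 51.2, 75.4, 138 and 91.6 CPM in dSCs (log2 2.26 ± 0.39, adjusted p = 0.00828). *Tagln*, another actin-binding protein that also marks mural cells, stood at 82.2, 206, 200.2 and 518 CPM in bSCs and 33, 72.8, 56.4 and 31 CPM in dSCs (log2 2.38 ± 0.58, adjusted p = 0.032, blocked adjusted p = 0.124). The higher mural marker sum given above includes *Tagln* itself. Other members, among them the effectors *Vim* and *Acta2*, were not called, nor were these transcription factors: *Snai1* (log2 -0.47 ± 1.16, adjusted p = 0.87), *Snai2* (log2 -0.95 ± 0.80, adjusted p = 0.56), *Twist1* (log2 -1.87 ± 1.41, adjusted p = 0.497), *Zeb1* (log2 -0.45 ± 0.33, adjusted p = 0.485) and *Zeb2* (log2 -0.88 ± 0.38, adjusted p = 0.194). Of genes that TGFβ raises in cultured rat SCs, 11 of 121 were called higher and 2 lower, with a median of 0.13, and of those it lowers, 3 of 37 were called, all lower, with a median of -0.73. *Ddah1*, which breaks down inhibitors of nitric oxide synthase, stood at 181, 138, 128 and 144 CPM in bSCs and 27.5, 30.6, 42.5 and 13.1 CPM in dSCs (log2 2.37 ± 0.43, adjusted p = 0.00994). The ligand *Tgfb2* stood at 55.7, 92, 42.7 and 149 CPM in bSCs and 9.95, 32.9, 24.8 and 23 CPM in dSCs (log2 1.90 ± 0.48, adjusted p = 0.0369, blocked adjusted p = 0.099). Among other members of the pathway, *Tgfb1* was near 0 in both regions and neither *Tgfbr1* (log2 0.30 ± 0.34, adjusted p = 0.675) nor *Tgfbr2* (log2 -0.79 ± 0.36, adjusted p = 0.221) was called. The EMT count of 6 was 1 with the pool block and 2 or 3 without bSC 2, bSC 5, dSC 1, dSC 2 or dSC 5. The TGFβ count of 11 was 6 with the block and 5 to 7 without bSC 3, bSC 5, dSC 1, dSC 2 or dSC 5, the count of 3 among genes it lowers was 1 with the block, and the 2 lower were 4 without bSC 1 and 1 without bSC 5, dSC 1, dSC 2 or dSC 5. Calls ended for *Tagln* without bSC 2, bSC 3, bSC 5, dSC 1, dSC 2, dSC 3 or dSC 5 (adjusted p = 0.05 to 0.0926) and for *Tgfb2* without bSC 2, bSC 5, dSC 1, dSC 2, dSC 3 or dSC 5 (adjusted p = 0.05 to 0.117).

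Genes of SC identity and of the repair state were for the most part not called. Of 12 SC lineage genes only *L1cam* was called, and of 19 genes of myelin structure only *Nfasc*, a node and paranode adhesion molecule, was called, lower at 0, 0, 0.859 and 2.38 CPM in bSCs and 27.5, 14.6, 14.6 and 13 CPM in dSCs (log2 -4.38 ± 0.96, adjusted p = 0.021, blocked adjusted p = 0.0876). *Mbp*, a myelin protein, stood at 254, 327, 1471 and 82.2 CPM in bSCs and 494, 835, 2137 and 225 CPM in dSCs (log2 -0.79 ± 0.79, adjusted p = 0.637), with pool 3 highest in both regions. *Jun*, the transcription factor of the repair state, stood at 443, 236, 351 and 324 CPM in bSCs and 469.9, 300.5, 568 and 566 CPM in dSCs (log2 -0.49 ± 0.39, adjusted p = 0.52), and *Ngfr*, the p75 neurotrophin receptor, at 627, 371, 899 and 351 CPM in bSCs and 627, 665, 1801 and 571 CPM in dSCs (log2 -0.71 ± 0.44, adjusted p = 0.396). The ranges of both overlapped. *Sox2*, a factor of immature SCs, stood at 0.224, 13.2, 11 and 11.9 CPM in bSCs and 30.5, 18, 17 and 45.6 CPM in dSCs (log2 -1.61 ± 0.94, adjusted p = 0.357), and the calcium-binding SC marker *S100b* at 6.86, 9.73, 56.6 and 2.7 CPM in bSCs and 62, 80.5, 95.4 and 80 CPM in dSCs (log2 -2.07 ± 0.69, adjusted p = 0.0932). For these the bSC libraries all lay below the dSC libraries, but neither passed the test. Among 17 repair markers 3 were called: *Ncam1*, *Gfap* and *Atf3*. *Gfap*, a glial intermediate filament, stood at 15.2, 15.3, 34.7 and 35.5 CPM in bSCs and 0, 0, 0.517 and 0 CPM in dSCs (log2 7.52 ± 1.84, adjusted p = 0.0325, blocked adjusted p = 0.0855). *Atf3*, an injury-induced transcription factor, went the other way, at 79.7, 46.4, 30.9 and 26.8 CPM in bSCs and 279, 294, 279.8 and 261 CPM in dSCs (log2 -2.60 ± 0.52, adjusted p = 0.0149), with all 4 dSC libraries close together. Calls ended for *Gfap* without bSC 3, bSC 5, dSC 1, dSC 2 or dSC 5 (adjusted p = 0.0567 to 0.0855) and for *Nfasc* without dSC 1 (adjusted p = 0.0531). With DESeq2, 1 SC lineage gene was higher and 2 lower, and 2 myelin structure genes were higher and 1 lower. Without dSC 3, edgeR called 4 myelin structure genes higher.

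Trophic factors and their receptors split by gene, with 2 of 26 called higher and 3 lower around a median of -0.53. *Hbegf*, an EGF receptor ligand, was higher in every bSC library, at 202, 381, 339 and 367 CPM in bSCs and 41.8, 22.7, 53.2 and 32.2 CPM in dSCs (log2 3.10 ± 0.37, adjusted p = 0.00161). The GDNF-family co-receptors went in opposite directions, with *Gfra2* at 74.9, 84.4, 196 and 282 CPM in bSCs and 51.8, 9.28, 47.9 and 32.4 CPM in dSCs (log2 2.17 ± 0.55, adjusted p = 0.0388, blocked adjusted p = 0.0826) and *Gfra1* at 101, 94.4, 173 and 83.9 CPM in bSCs and 369, 236, 296 and 177 CPM in dSCs (log2 -1.25 ± 0.31, adjusted p = 0.0335, blocked adjusted p = 0.0613). *Ntrk2*, the TrkB neurotrophin receptor, was lower, at 32.2, 25.6, 18.9 and 34.2 CPM in bSCs and 97.2, 102, 70.1 and 67.5 CPM in dSCs (log2 -1.60 ± 0.27, adjusted p = 0.00657). *Ntrk3*, the TrkC receptor, had no count in any bSC library and 0, 18.8, 7.98 and 2.69 CPM in dSCs (adjusted p = 0.018, blocked adjusted p = 0.0869). The ligand *Gdnf* was low in both regions, and *Shh*, which repair SCs secrete, stood at 17.7, 0.146, 2.41 and 0 CPM in bSCs and 61.1, 55.6, 34.6 and 54.9 CPM in dSCs (log2 -3.34 ± 1.47, adjusted p = 0.205). The lower count of 3 was 1 with the pool block, and the higher count of 2 was 1 without bSC 3, bSC 5, dSC 1, dSC 2, dSC 3 or dSC 5. Calls ended for *Gfra2* without bSC 3, bSC 5, dSC 1, dSC 2, dSC 3 or dSC 5 (adjusted p = 0.0564 to 0.106) and for *Gfra1* without bSC 1, bSC 2, bSC 5, dSC 1, dSC 2 or dSC 3 (adjusted p = 0.0549 to 0.0909).

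**Figure D3:**
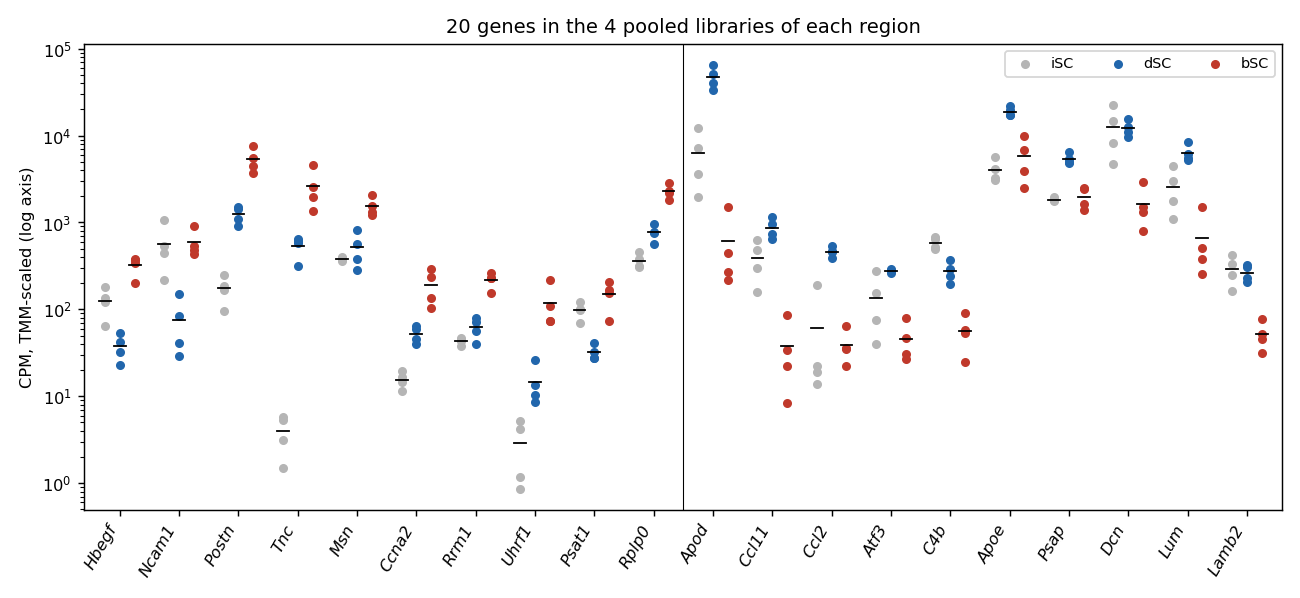
TMM-scaled CPM (log axis) of 20 named genes in each pooled library of intact nerve (grey), distal stump (blue) and bridge (red), 1 point per library, with the mean as a bar. The 10 genes on the left were higher in all 4 bSC libraries than in any dSC library, and the 10 on the right lower, while iSCs lay on either side.

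Genes of the extracellular matrix were called in both directions. Among 27 matricellular genes, whose products modulate adhesion, 5 were called higher (*Cd44*, *Cyr61*, *Postn*, *Thbs2* and *Tnc*) and 6 lower (*Smoc2*, *Tgfbi*, *Thbs4*, *Tnxb*, *Vtn* and *Wisp2*). *Postn*, periostin, stood at 5464, 4510.5, 3729 and 7602 CPM in bSCs and 1432, 918, 1524 and 1088 CPM in dSCs (log2 2.10 ± 0.33, adjusted p = 0.00524). *Tnc*, tenascin C, stood at 1963, 2543, 1343 and 4575 CPM in bSCs and 642, 316, 619.7 and 582 CPM in dSCs (log2 2.27 ± 0.45, adjusted p = 0.0138). *Thbs2* stood at 1099.8, 1319, 1261 and 1552 CPM in bSCs and 389, 503, 639.8 and 310.2 CPM in dSCs (log2 1.51 ± 0.27, adjusted p = 0.00936). Every bSC library exceeded every dSC library for these 3. Their relatives on the lower side were *Tnxb*, tenascin X, at 32.4, 27.3, 50.3 and 8.58 CPM in bSCs and 380.4, 431, 178 and 440.5 CPM in dSCs (log2 -3.59 ± 0.54, adjusted p = 0.00415), and *Thbs4* at 475, 205, 72.3 and 187 CPM in bSCs and 1683, 1821, 1136 and 1531 CPM in dSCs (log2 -2.71 ± 0.56, adjusted p = 0.0168), again without overlap. Thus tenascins C and X, and thrombospondins 2 and 4, were called in opposite directions. *Fn1*, fibronectin, stood at 1670.0, 1356, 516 and 1178 CPM in bSCs and 4780.4, 4678, 2058 and 4300.0 CPM in dSCs (log2 -1.74 ± 0.53, adjusted p = 0.0708). The higher count of 5 was 3 with the pool block and without bSC 5, dSC 1, dSC 2 or dSC 5, and the lower count of 6 was 2 with the block and 3 without bSC 3, bSC 5 or dSC 2.

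Small leucine-rich proteoglycans, which bind collagen fibrils, had 4 of 9 called, all lower, and a median of -1.64, and all 4 kept the call in the blocked fit and in all 8 omissions. *Dcn*, decorin, stood at 2955, 1337, 1509 and 799 CPM in bSCs and 12459, 15345, 9537 and 11075 CPM in dSCs (log2 -2.87 ± 0.51, adjusted p = 0.00917). *Lum*, lumican, stood at 1527, 504, 382 and 258 CPM in bSCs and 6170.2, 8331, 5593 and 5231 CPM in dSCs (log2 -3.25 ± 0.58, adjusted p = 0.00925). *Prelp* stood at 54.9, 49.2, 41.1 and 57 CPM in bSCs and 371, 688, 319 and 306 CPM in dSCs (log2 -3.06 ± 0.46, adjusted p = 0.00428), with little spread among bSC libraries. *Ogn*, osteoglycin, was the fourth, at 196, 122, 200.5 and 127 CPM in bSCs and 353, 714, 506 and 437 CPM in dSCs (log2 -1.64 ± 0.28, adjusted p = 0.00761). None of the 4 overlapped, whereas *Bgn*, biglycan, did, at 1787, 942, 531 and 1065 CPM in bSCs and 936, 1334, 935 and 1048 CPM in dSCs (log2 0.03 ± 0.54, adjusted p = 0.988). *Dcn* and *Lum* are also fibroblast markers. The fibroblast sums given above include both genes, so they are no separate measure of fibroblast RNA beside these calls. Of 18 laminin and basement membrane genes, 2 were called lower and kept it in the blocked fit and all omissions. They were *Lama2*, the laminin chain of the SC basal lamina, at 96.5, 48, 42.3 and 72.8 CPM in bSCs and 327, 203, 172 and 242 CPM in dSCs (log2 -1.86 ± 0.36, adjusted p = 0.0124), and *Lamb2*, its β partner, at 76.8, 46.1, 51.7 and 31.6 CPM in bSCs and 304, 320.0, 205 and 227 CPM in dSCs (log2 -2.36 ± 0.34, adjusted p = 0.00405). Of 36 collagens, 1 was called higher (2.78%) and 2 lower (5.56%), near the 2.31% and 3.11% of all genes. *Col2a1*, the fibril collagen best known from cartilage, was almost absent from bSCs, at 0.0448, 4.54, 0.0859 and 0 CPM in bSCs and 302, 316, 174 and 273 CPM in dSCs (log2 -7.89 ± 1.27, adjusted p = 0.00545). *Col28a1*, a collagen of peripheral nerve, was lower, at 47, 32.7, 59.7 and 55.1 CPM in bSCs and 242, 234, 125 and 239.9 CPM in dSCs (log2 -2.11 ± 0.39, adjusted p = 0.0114, blocked adjusted p = 0.0566), and *Col12a1* was higher, at 122.8, 195, 81.2 and 307 CPM in bSCs and 39.5, 2.29, 23.3 and 37 CPM in dSCs (log2 2.79 ± 0.68, adjusted p = 0.0317, blocked adjusted p = 0.0885). *Fbn2*, fibrillin 2, was lower, at 95.7, 54.1, 13 and 44.6 CPM in bSCs and 493, 285, 135 and 400.1 CPM in dSCs (log2 -2.66 ± 0.55, adjusted p = 0.0165). The lower collagens were 6 without bSC 1 and 1 with the pool block. The call ended for *Col12a1* without bSC 2, bSC 5, dSC 1, dSC 3 or dSC 5 (adjusted p = 0.0574 to 0.0843).

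Transcripts of several chemokines and complement components were lower in bSCs. Of 40 chemokines and cytokines, 5 were called lower (*Ccl2*, *Ccl11*, *Cxcl5*, *Cxcl13* and *Osmr*), 1 higher (*Mif*), 30 were negative and the median was -1.14. *Ccl11*, eotaxin, stood at 85, 22.2, 8.34 and 34.4 CPM in bSCs and 959, 1142, 649 and 739 CPM in dSCs (log2 -4.54 ± 0.65, adjusted p = 0.00403). *Ccl2*, which attracts monocytes, stood at 64, 35, 35.5 and 22.5 CPM in bSCs and 465, 385, 455 and 538 CPM in dSCs (log2 -3.55 ± 0.75, adjusted p = 0.019). *Osmr*, the oncostatin M receptor, stood at 40.9, 14.7, 23.8 and 18.7 CPM in bSCs and 134, 265, 85 and 144 CPM in dSCs (log2 -2.68 ± 0.40, adjusted p = 0.00415). In all 3 the bSC and dSC ranges were far apart. *Cxcl13*, which attracts B cells, had no count in any bSC library and 6.12, 14.4, 16.4 and 25.5 CPM in dSCs, so it was at least 83-fold lower against a floor of 3 counts per library (adjusted p = 0.00482). Calls ended for *Ccl2* without bSC 3 or bSC 5 (adjusted p = 0.0512 to 0.0543) and for *Mif* without bSC 2, bSC 3, bSC 5, dSC 1, dSC 2, dSC 3 or dSC 5 (adjusted p = 0.0507 to 0.0843). *Cxcl5* and *Mif* lost theirs with the pool block. Complement had the largest share called of the 68 lists, 8 of 14 lower (57.1%) against 3.11% of all genes, with 13 negative and a median of -2.57. *C4b* stood at 53.9, 91, 57.5 and 24.9 CPM in bSCs and 289, 196, 244 and 369 CPM in dSCs (log2 -2.27 ± 0.35, adjusted p = 0.00482). *C3*, the central component, stood at 12.5, 30.1, 1.8 and 0.0933 CPM in bSCs and 387, 418, 251 and 504 CPM in dSCs (log2 -5.13 ± 1.08, adjusted p = 0.0185, blocked adjusted p = 0.0655). *Serping1*, the inhibitor of the C1 proteases, stood at 1006, 388, 493 and 230.2 CPM in bSCs and 2200.0, 3574, 2749.9 and 1939 CPM in dSCs (log2 -2.30 ± 0.44, adjusted p = 0.012, blocked adjusted p = 0.0597). *C1ra*, one of these proteases, stood at 65.2, 18.4, 44.2 and 10.4 CPM in bSCs and 200.3, 202, 168 and 207 CPM in dSCs (log2 -2.49 ± 0.52, adjusted p = 0.018, blocked adjusted p = 0.0664). None of these overlapped. With the pool block 1 complement gene (*C4b*) was called, and 5 were without dSC 1. Macrophage markers moved in the same direction as these lists, with a median of -1.22 over the 20 markers. Interferon-stimulated genes had 1 of 35 called (*Oas2*, lower) and a median of -0.59, and the call ended for *Oas2* without bSC 2, bSC 3, bSC 5, dSC 1 or dSC 5 (adjusted p = 0.0507 to 0.0634). No gene of the 21 for MHC and antigen presentation was called by edgeR (1 at an unadjusted p under 0.05, and 1 called with DESeq2), their median was -0.60, and *B2m* stood at 1479, 2451, 2517 and 1267 CPM in bSCs and 1148, 2563, 2247 and 2261 CPM in dSCs (log2 -0.09 ± 0.34, adjusted p = 0.918). The class II gene *H2-Ab1* stood at 149, 626, 530.0 and 172 CPM in bSCs and 552, 754, 921 and 459 CPM in dSCs (log2 -0.86 ± 0.89, adjusted p = 0.645).

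Some transcripts of phagocytosis, lipid efflux and lysosome genes were lower in bSCs. Of 23 genes of phagocytosis and lipid efflux, 6 were called lower (*Abca1*, *Apod*, *Apoe*, *Lgals3*, *Lrp1* and *Mertk*) and 1 higher (*Scarb1*), with a median of -0.94. *Apod*, a lipid-binding protein that injured nerves make in large amounts, was the largest of these, at 1512, 444, 220.4 and 271 CPM in bSCs and 40599.7, 51442, 33872 and 64652 CPM in dSCs (log2 -6.28 ± 0.80, adjusted p = 0.00206). Every dSC library was far above every bSC library. *Abca1*, the cholesterol efflux pump, stood at 103, 139, 47.7 and 57.1 CPM in bSCs and 749, 568, 322 and 548 CPM in dSCs (log2 -2.66 ± 0.37, adjusted p = 0.00321), and *Apoe*, the lipid carrier it loads, at 6812, 9871, 3871 and 2525 CPM in bSCs and 19633, 21748, 17166 and 17090.5 CPM in dSCs (log2 -1.71 ± 0.40, adjusted p = 0.0267). *Mertk*, a receptor for apoptotic cells and myelin, stood at 6.59, 4.54, 0.0859 and 1.73 CPM in bSCs and 36, 24.6, 38.2 and 29.9 CPM in dSCs (log2 -3.31 ± 0.81, adjusted p = 0.033, blocked adjusted p = 0.0934), while the related *Axl* overlapped, at 414, 543, 741 and 887 CPM in bSCs and 461, 601, 592 and 484 CPM in dSCs (log2 0.27 ± 0.34, adjusted p = 0.707). *Scarb1*, which takes up cholesterol from HDL, was higher, at 167, 87.9, 241 and 129 CPM in bSCs and 21.4, 80.2, 57.2 and 42.8 CPM in dSCs (log2 1.63 ± 0.38, adjusted p = 0.0279, blocked adjusted p = 0.0862). Of 43 lysosome and autophagy genes 5 were called lower, 35 were negative and the median was -0.62. *Psap*, the precursor of saposins, stood at 2440.2, 2514, 1378 and 1611 CPM in bSCs and 4823, 6408, 5438 and 4963 CPM in dSCs (log2 -1.45 ± 0.25, adjusted p = 0.00835), and the protease *Ctsl* at 645, 473, 368 and 428 CPM in bSCs and 1097, 1257, 1176 and 1277 CPM in dSCs (log2 -1.33 ± 0.24, adjusted p = 0.00961). Macrophages express many of these genes as well, and their marker sum was lower in bSCs without overlap in the pools, while it overlapped in single nerves. The phagocytosis count of 6 was 4 with the pool block, 2 without dSC 1 and 3 without bSC 5, dSC 2 or dSC 5. The lysosome count of 5 was 2 with the block and 2 or 3 without bSC 3, bSC 5, dSC 1, dSC 2 or dSC 5. Calls ended for *Apoe* without bSC 3, bSC 5, dSC 1, dSC 2 or dSC 5 (adjusted p = 0.0565 to 0.08), for *Mertk* without bSC 2, bSC 5, dSC 1, dSC 2, dSC 3 or dSC 5 (adjusted p = 0.0524 to 0.0827) and for *Scarb1* without bSC 3, dSC 1 or dSC 5 (adjusted p = 0.0575 to 0.0821).

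The largest decreases were genes with no or almost no count in bSCs. *A2m*, a plasma protease inhibitor, had no count in any bSC library and 64.1, 94.2, 31.7 and 77.1 CPM in dSCs, at least 355-fold lower (adjusted p = 0.00111). *Car4*, a membrane carbonic anhydrase, had 0 in bSCs and 26.2, 44.7, 35.2 and 39.8 CPM in dSCs, at least 194-fold lower (adjusted p = 0.0117). *Sorl1*, a sorting receptor, had 0 in bSCs and 54.2, 38.1, 11.3 and 14.4 CPM in dSCs, at least 157-fold lower (adjusted p = 0.00415). These genes were present in every pooled dSC library and in no pooled bSC library. The same held for the magnesium channel *Trpm6* (at least 174-fold), *Adamtsl3* (149-fold), the cartilage matrix gene *Comp* (140.3-fold) and *Parm1* (113-fold), all of which kept their call in the blocked fit and in all omissions. *Stk32b* (at least 164-fold) lost it in the blocked fit (adjusted p = 0.0378, blocked adjusted p = 0.0869) and in each of the 8 omissions. *Gcg*, the glucagon precursor, *Kng1*, *Fetub* and the mesothelial gene *Msln* had 1 count in bSC 3 and none in the other bSC libraries, against 79.3, 67.7, 87.5 and 34.8 CPM, 50.6, 62.8, 43.1 and 20.1 CPM, 36.7, 41.3, 28 and 66.2 CPM and 40, 85.2, 29.1 and 13.4 CPM in dSCs, in that order. The 4 calls held in the blocked fit and all omissions. *Adm*, adrenomedullin, the 1 called gene of the 27 hypoxia genes, stood at 0, 2.78, 0.773 and 3.73 CPM in bSCs and 84.9, 118, 115 and 163 CPM in dSCs (log2 -6.04 ± 1.07, adjusted p = 0.00917). *Abcd2*, a peroxisomal fatty acid transporter, had 0 in bSCs and 19, 12.6, 27.1 and 17.3 CPM in dSCs, at least 101-fold lower (adjusted p = 0.00234). Absence from bSCs was often not found in the single nerves of the same day. Of the 112 lower genes at 0 in all pooled bSC libraries, 88 had a count in at least 1 of the 3 single bSC libraries and 14 in all 3. Single bSC and dSC libraries did not overlap in the same direction for 15 of the 112 and in the opposite direction for 2. Of the 7171 genes that passed the count filter of the single nerves, 10.2% did not overlap in each direction. *Abcd2* stood there at 1.28, 85 and 0.348 CPM in bSCs and 2.56, 32.9 and 16.1 CPM in dSCs, and *Adamtsl3* at 1.8, 7.43 and 15.6 CPM and 30.1, 7.05 and 61.1 CPM, so both overlapped. *A2m* had no count in the 3 single bSC libraries and 95.2, 103 and 48.6 CPM in single dSCs.

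The largest increases included genes of several roles. *Acsbg1*, an acyl-CoA synthetase, stood at 82.4, 107, 65.7 and 400.0 CPM in bSCs and 7.8, 0, 1.92 and 1.27 CPM in dSCs (log2 5.90 ± 1.12, adjusted p = 0.0117, blocked adjusted p = 0.0655). *Lrrc15*, a membrane protein with leucine-rich repeats, stood at 219, 105, 70.6 and 203 CPM in bSCs and 3.44, 0, 18.5 and 6.71 CPM in dSCs (log2 4.38 ± 1.05, adjusted p = 0.0309, blocked adjusted p = 0.0724). *Rgcc*, a regulator of the cell cycle, stood at 72.4, 71.4, 118 and 51.7 CPM in bSCs and 3.98, 3.03, 19.7 and 13.4 CPM in dSCs (log2 2.97 ± 0.55, adjusted p = 0.0109). For all 3 the regions did not overlap, and *Rgcc* alone of them kept its call in the blocked fit. *Slc35f1* stood at 81.2, 56.5, 164 and 251 CPM in bSCs and 3.75, 31.5, 30.3 and 8.73 CPM in dSCs (log2 2.89 ± 0.67, adjusted p = 0.0268, blocked adjusted p = 0.0721), and the predicted gene *Gm11149* at 35.1, 53.8, 59.8 and 134 CPM in bSCs and 1.84, 1.28, 16.2 and 6.34 CPM in dSCs (log2 3.46 ± 0.83, adjusted p = 0.0309, blocked adjusted p = 0.0704). *Gm11149* lies at chr9:49326441-49371049 on the plus strand, within *Ncam1* on the minus strand. Its reads cannot be told apart from those of *Ncam1* here, so it may not be a separate increase. The imprinted gene *Mest* stood at 2564, 748, 520.4 and 1426 CPM in bSCs and 106, 92.3, 371 and 176 CPM in dSCs (log2 2.82 ± 0.66, adjusted p = 0.0268, blocked adjusted p = 0.0702), and the imprinted *Meg3* was lower, at 75.8, 60.2, 18.1 and 38.2 CPM in bSCs and 326, 188, 186 and 255 CPM in dSCs (log2 -2.31 ± 0.47, adjusted p = 0.0155). Calls ended for *Lrrc15* without bSC 1, bSC 5, dSC 1 or dSC 5 (adjusted p = 0.0523 to 0.0855), for *Slc35f1* without bSC 3, bSC 5, dSC 1 or dSC 5 (adjusted p = 0.0548 to 0.0794), for *Gm11149* without bSC 5, dSC 1, dSC 2 or dSC 5 (adjusted p = 0.063 to 0.084) and for *Mest* without bSC 1, bSC 5, dSC 1, dSC 2 or dSC 5 (adjusted p = 0.052 to 0.0811).

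In the lists of WNT, Notch, Eph, semaphorin, ion channel and AP-1 genes below, all called genes were lower in bSCs. Other signalling lists had calls in both directions. Of 18 neuregulin, EGF ligand and ERBB genes, 1 was called higher (5.56%, against 2.31% of all genes) and 2 lower (11.1%). Of 21 YAP/TAZ and TEAD genes, 1 was called higher and 1 lower (4.76% each). With the pool block these counts were 1 and 0, then 0 and 0. Of WNT genes 10% were called lower, of Eph family genes 11.1% and of Notch genes 5.26%, against 3.11% of all genes. The share was 6.12% for semaphorin, plexin, slit and netrin genes, 6.85% for ion channels and 11.1% for AP-1 and immediate early genes. With DESeq2, 10 WNT genes were lower and 0 higher. Of 40 WNT genes 4 were lower, with the secreted antagonist *Dkk3* at 14.4, 18.5, 25.2 and 8.49 CPM in bSCs and 70.1, 92.7, 78.4 and 41.8 CPM in dSCs (log2 -2.09 ± 0.37, adjusted p = 0.00864), and the count was 1 with the pool block, 7 without bSC 1 and 2 without bSC 2, bSC 5, dSC 1, dSC 3 or dSC 5. Of 19 Notch genes only *Notch2* was called, lower at 76, 90.4, 50.5 and 64.8 CPM in bSCs and 198, 188, 116 and 289 CPM in dSCs (log2 -1.49 ± 0.29, adjusted p = 0.0128). In the Eph family 2 of 18 were lower, *Efnb3*, with 0 in bSCs and 0.612, 29.5, 9.53 and 1.49 CPM in dSCs (adjusted p = 0.0129, blocked adjusted p = 0.0923) and *Epha5* at 24.2, 17.6, 8.16 and 2.43 CPM in bSCs and 100.2, 83.1, 133 and 108 CPM in dSCs (log2 -3.01 ± 0.75, adjusted p = 0.0345, blocked adjusted p = 0.0526), and the call ended for *Epha5* without bSC 2, bSC 3, bSC 5, dSC 1, dSC 2, dSC 3 or dSC 5 (adjusted p = 0.0566 to 0.086). *Ephb2*, the receptor for ephrins on fibroblasts, overlapped, at 27.4, 22.2, 3.95 and 24.5 CPM in bSCs and 33, 5.45, 9.38 and 17.4 CPM in dSCs (log2 0.26 ± 0.79, adjusted p = 0.898). Of 49 semaphorin, plexin, slit and netrin genes 3 were lower, 0 with the block, 5 without bSC 3 and 1 without bSC 2, bSC 5, dSC 1, dSC 2, dSC 3 or dSC 5. Of 73 ion channel genes 5 were lower with a median of -0.95, and *Trpm7* stood at 31.9, 44.5, 25.3 and 28.4 CPM in bSCs and 88.4, 95.2, 70.8 and 130.2 CPM in dSCs (log2 -1.56 ± 0.29, adjusted p = 0.0103). The channel count was 2 with the block or without dSC 1 and 3 without dSC 2 or dSC 5. Of 27 AP-1 and immediate early genes 3 were lower (*Atf3*, *Gadd45b* and *Klf4*), 1 with the block and without bSC 5, dSC 1 or dSC 5, and *Fos* overlapped, at 1313, 579, 474 and 397 CPM in bSCs and 851, 837, 559 and 849.6 CPM in dSCs (log2 -0.16 ± 0.56, adjusted p = 0.912). None of the 11 MYC network genes was called by edgeR (2 at an unadjusted p under 0.05, and 1 called with DESeq2). *Myc* itself did not overlap and just missed the threshold, at 65.7, 41.5, 82.2 and 68.9 CPM in bSCs and 12.9, 32.1, 31.9 and 23.9 CPM in dSCs (log2 1.36 ± 0.38, adjusted p = 0.0531).

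The called genes lay on either side of the level in iSCs. Of the 318 genes higher in bSCs, the iSC mean was below the bSC mean for 297, and it was below the dSC mean for 159. Of the 428 lower genes, the iSC mean was above the bSC mean for 404 and above the dSC mean for 172. *Tnc*, for instance, stood at 1.48, 3.15, 5.3 and 5.81 CPM in iSC 1, 2, 4 and 5, below both injured regions, while *C4b* stood at 500.3, 684, 641 and 519 CPM, above both. *Ncam1* stood at 534, 1054, 445 and 217 CPM in iSCs, a range that took in the bSC levels and lay above all dSC libraries. These comparisons of means were not tested.

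Single nerves of day 6, 3 bSC and 3 dSC libraries from other sorts, give values independent of the pooled libraries. There 7171 genes were tested and 1 was called (0.0139%), with 455 at an unadjusted p under 0.05 (6.35%). Libraries of 1 number share animals here too, and with the animal number as a block 20 were called. Of the genes higher in the pooled bSCs 297 could be tested, and 237 (79.8%) were higher in single nerves too, with a median log2 fold change of 0.54. Of the lower genes 224 could be tested, and 199 (88.8%) were lower too, with a median of -1.04. Among all 7171 genes tested there, 3546 were positive and 3625 negative. Libraries of the regions did not overlap in the same direction for 97 of the 297 (32.7%) and 105 of the 224 (46.9%), against 10.2% of all genes in each direction, and in the opposite direction for 2 and 0. S phase genes had a median of 1.05 with 26 of 30 positive, and mitosis genes 0.76 with 24 of 25 positive. *Apod* stood at 48.1, 272 and 142 CPM in single bSCs and 18195, 21726 and 13672 CPM in single dSCs, and *Postn* at 4763, 4107 and 6895 CPM and 1133, 766 and 2067 CPM. Other lists did not keep the sign of their median. Cytosolic ribosomal proteins, at a median of 0.58 with 72 of 74 positive in the pools, had -0.89 with 1 of 72 positive, and oxidative phosphorylation, at 0.42, had -0.71 with 6 of 73 positive. Collagens went from -0.59 to 0.76 with 16 of 19 positive, interferon-stimulated genes from -0.59 to 0.77 with 18 of 23 positive, ion channels from -0.95 to 0.35 with 8 of 12 positive, and the fibroblast markers from -2.42 to 0.02. AP-1 genes kept it, at -0.25 in the pools and -1.05 with 0 of 22 positive in single nerves. A test of the difference between the experiments called 1 of 14034 genes (0.00713%), *Adcyap1r1*, with 992 at an unadjusted p under 0.05 (7.07%), and it called no gene with the pool or animal number as a block. The differences between lists were not tested as such.

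**Figure D4:**
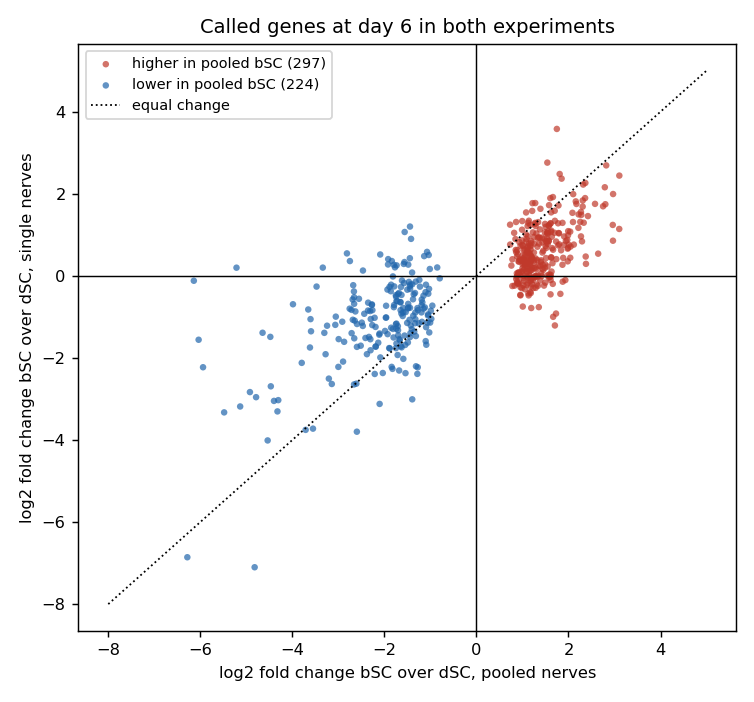
Log2 fold change of bSCs over dSCs in pooled nerves (horizontal) and in single nerves (vertical), both at day 6, for 297 genes called higher (red) and 224 called lower (blue) in the pools that could be tested in single nerves. Points of the same sign numbered 237 and 199, and the dotted line marks equal change.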

How the data were processed

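The 8 pooled-nerve libraries of bSCs and dSCs at day 6 were compared, with 4 pooled iSC libraries in the same fit. Per the labels and the study's methods, the authors aligned reads with TopHat2 2.0.11 to mm9 and assigned them to gene symbols with HTSeq, and the authors deposited these counts unscaled. Whether counting used strand is not given in the sources used here, so overlapping and antisense genes cannot be told apart. Lane files of a library were summed, and spike-ins and HTSeq's own categories were dropped, which left 24016 genes. Chi-square per degree of freedom was at most 1.303 between lanes of a library and at least 53.2 between replicates. The 12 rat files were not used.

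Genes were tested in R 4.3.3 with edgeR 4.0.16 (TMM, its filter on low counts, the quasi-likelihood test, Benjamini-Hochberg adjustment over all genes tested, threshold 0.05), with region as the only term. The single-nerve test kept genes with at least 100 counts in at least 85% of libraries. The alternatives were DESeq2 1.42.0, other scalings and filters, a fit of bSCs and dSCs alone, a lane covariate, the lane-pair libraries alone, each library left out in turn, and the pool number as a block. The labels give bSC and dSC libraries of 1 number the same animals, and the correlations of their deviations from the group means were -0.007, 0.020, 0.121 and 0.0486 for pools 1, 2, 3 and 5. The tests were first checked on simulated counts.

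Named genes were the 12 largest increases and 12 largest decreases among called genes without overlap and with a mean of at least 20 CPM in the higher region, 122 genes starred by hand, and up to 4 called genes per direction of each of 68 lists by smallest p, of which not every one is given, and some are not reported here. The other members of a list are named without values. The comparison, lists and rule were chosen with earlier results of these data known. Genes with no count in a whole region were given a bound at 3 counts per library.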

Additional observations from a re-analysis of the deposited data

Results flagged for a closer look

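Groups of 4 pooled libraries of the starred and most changed genes were searched for 1 library far from the other 3, by the ratio of its gap to the range of log2(CPM + 1). Of 271 groups (141 genes), 19 passed Dixon's critical ratio for 4 libraries, and chance flags about 1 in 20 groups. In the bridge, bSC 3 stood apart for 8 genes, with *Efnb2* at 1.20 CPM, *Ephb2* at 3.95, *Hey1* and *Smad7* at 0, and *Fetub*, *Gcg*, *Kng1* and *Msln* at 0.0859 CPM, which is 1 count, where the other bSC libraries had 0. In bSC 1, levels were low for *Dhh* (73.6 CPM), *Hmga2* (1.61) and *Sox2* (0.224). Of the bSC libraries, bSC 2 alone had counts of *Il6* (1.46 CPM) and *Nrg1* (4.61).

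In the distal stump, dSC 3 stood low for *Fn1* (2058 CPM) and *Fos* (559.0), high for *Ngfr* (1801 CPM), and was the only dSC library with a count of *Gfap* (0.517). *B2m* in dSC 1 (1148 CPM) and *Tnc* in dSC 2 (316 CPM) were low. For *Tnc*, leaving out this library did not end the call.

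The difference between bSCs and dSCs passed the test of a difference between pooled and single nerves for *Adcyap1r1*, a receptor for the neuropeptide PACAP, but not with the pool or animal number as a block (adjusted p = 0.879 by edgeR). Its log2 fold change was lower in the pools by 8.69 (interaction term -8.69, adjusted p = 0.046 by edgeR), and it stood at 0, 0, 0.0859 and 0 CPM in bSCs and 34.5, 38.9, 20.2 and 51.5 CPM in dSCs in the pools, and at 12.6, 14.8 and 7.51 CPM in single bSCs and 36.6, 66.1 and 32.4 CPM in single dSCs.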

How the results depend on the processing

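Each of the 746 called genes kept its sign in every alternative in which it was tested (622 to 746 of them). DESeq2 called 2106 genes, 848 higher (342 past 2.5-fold) and 1258 lower (1046), where edgeR called 746, 318 (167) and 428 (388). A fit of bSC and dSC libraries alone called 485, of which 264 were lower (248 past 2.5-fold). With the pool number as a block it was 236, of which 97 were higher (74) and 139 lower (135). The lane-pair libraries alone gave 109, all past 2.5-fold, 41 higher and 68 lower. Other scalings, filters and the lane covariate kept every count within 1.5 times. Without 1 library the count ran from 325 (without dSC 5) to 800 (without bSC 1), with 108 to 343 higher (76 to 195 past 2.5-fold) and 208 to 457 lower (198 to 428). It was 490 without bSC 3, 424 without bSC 5, 335 without dSC 1 and 431 without dSC 2. In single nerves the count of 1 became 20 with the animal number as a block and 0 to 6 without 1 library (0 without bSC 0 or bSC 3, 6 without dSC 3). The test between the experiments called 1 gene with edgeR, 221 with DESeq2 and 0 with the pool or animal number as a block. Of the named genes tested, 174 kept their side of the threshold with the block and 91 lost the call, and 192 to 246 kept it without 1 library. The cause of these differences was not tested. Depth limits statements on genes at 0, for which the floor was 3 counts per library.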

Other observations

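The gene families and genes of this section were chosen after their values were seen, so their counts are descriptions. Members of families for protein folding, degradation and transport were among the genes higher in bSCs. Of 38 proteasome subunits tested, 6 were called higher in bSCs (*Psma3*, *Psma5*, *Psma6*, *Psmb1*, *Psmb7* and *Psmd14*), 35 were positive and the median log2 fold change was 0.73, with 2 called when the pool number was a block and a median of -0.07 in single nerves. All 8 subunits of the cytosolic chaperonin, which folds actin and tubulin, were positive with a median of 1.00, and 4 were called (*Cct4*, *Cct5*, *Cct6a* and *Tcp1*), 1 with the block. All 20 aminoacyl-tRNA synthetases were positive with a median of 0.87 in the pools and 0.75 in single nerves, and 3 were called (*Gars*, *Tars* and *Vars*), 1 with the block. Vesicle coat and cargo genes between endoplasmic reticulum and Golgi had 6 of 31 called higher (2 with the block) and a median of 0.61.

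Lipid transporters of ABC class A were lower in bSCs of the pools, with 6 of 10 tested called lower, 5 with the block, and a median of -3.07. In single nerves 5 of the family could be tested, and their median was -0.26. *Abca8a* stood at 20.3, 10.7, 48 and 21.7 CPM in bSCs and 492, 433, 231 and 439 CPM in dSCs (log2 -3.99 ± 0.43, adjusted p = 0.00125), and *Abca9* at 34.5, 12.9, 17.8 and 22.6 CPM in bSCs and 336, 339.6, 107 and 195 CPM in dSCs (log2 -3.47 ± 0.54, adjusted p = 0.00482). Neither overlapped. Single genes picked for their large decreases follow. *Cp*, the copper carrier ceruloplasmin, stood at 46.2, 8.19, 14.8 and 8.95 CPM in bSCs and 1051, 836, 535 and 1079.9 CPM in dSCs (log2 -5.48 ± 0.63, adjusted p = 0.00146), and *Trf*, transferrin, at 314, 513, 177 and 155 CPM in bSCs and 2240.2, 3536, 2212 and 2718 CPM in dSCs (log2 -3.21 ± 0.52, adjusted p = 0.0058). *Ptx3*, a soluble pattern receptor, stood at 5.2, 12, 12.6 and 5.22 CPM in bSCs and 173, 102, 225 and 279 CPM in dSCs (log2 -4.48 ± 0.83, adjusted p = 0.0109). In each of the 3 every dSC library lay far above every bSC library. Also among these were genes best known from resident or alternatively activated macrophages, *Fcna* at 8.61, 32.7, 19.9 and 12.4 CPM in bSCs and 363, 662, 275 and 493 CPM in dSCs (log2 -4.61 ± 0.80, adjusted p = 0.00824) and *Retnla* at 22.9, 106, 26 and 2.24 CPM in bSCs and 531, 1681, 1234.3 and 1323 CPM in dSCs (log2 -4.92 ± 1.06, adjusted p = 0.0201, blocked adjusted p = 0.076), the second reaching an adjusted p of 0.0561 without bSC 3. The macrophage marker sum moved in the same direction, and its part in these values was not tested.

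The nuclear long non-coding RNA *Malat1* stood at 2001, 3155, 4518 and 1593 CPM in bSCs and 28236, 15903, 17987 and 9075 CPM in dSCs (log2 -2.66 ± 0.43, adjusted p = 0.00537). It was lower in single nerves too, with a log2 fold change of -2.65. *Neat1*, its genomic neighbour, stood at 25.9, 33.1, 4.3 and 0.233 CPM in bSCs and 467, 109, 138 and 314 CPM in dSCs (log2 -4.02 ± 0.99, adjusted p = 0.0339, blocked adjusted p = 0.0742), with an adjusted p up to 0.083 without dSC 1. The cyclin *Ccnl2*, which takes part in splicing, stood at 30.3, 28.1, 23.3 and 23.8 CPM in bSCs and 92.6, 71.2, 60.8 and 102 CPM in dSCs (log2 -1.63 ± 0.26, adjusted p = 0.00545). The regions did not overlap for these 3 genes, nor for the share of reads on genes (44.0% to 45.8% in bSCs, 39.1% to 43.0% in dSCs), whose part in these values was not tested. Among genes named for an RNA-binding motif, 4 of 30 were called lower (*Rbm5*, *Rbm25*, *Rbm26* and *Rbm39*) and the cold-induced *Rbm3* was called higher, at 642, 919, 665 and 1009.7 CPM in bSCs and 326, 288, 314 and 473 CPM in dSCs (log2 1.21 ± 0.25, adjusted p = 0.018), with an adjusted p of 0.0546 without dSC 1.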
